A study of Homo sapiens and Mus musculus with 9 samples.

Results

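The comparison described here is that of fasting with fed mouse liver, measured by RNA-seq of polyadenylated RNA. It rests on 2 of the 9 samples of the series, 1 library of fed liver and 1 library of fasting liver, both from wild-type (WT) mice. The remaining samples are 1 liver library of fasting with transfection of a trans-RNA against ATF4, a stress-induced transcription factor, and 6 libraries of the human cell line HEK293. Neither liver library used here carries a transgene or a trans-RNA per its labels. Strain, sex, age, the length of the fast and whether a library holds 1 liver or several are not given in the sources used here.

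The liver holds blood glucose steady between meals. In the fed state hepatocytes burn glucose, store it as glycogen and turn the excess into fatty acids and cholesterol. During a fast, glucagon, glucocorticoids and fatty acids arriving from fat tissue shift hepatocytes to glucose synthesis from lactate, glycerol and amino acids, to fatty acid oxidation and to the release of ketone bodies, and transcription factors such as PPAR alpha, CREB, FOXO1 and the glucocorticoid receptor carry much of this shift in mRNA. These pathways are background only. The deposited tables list mouse transcripts by Ensembl transcript ID, and no table used here pairs such an ID with a gene symbol, so no gene of these pathways is named, the tissue was not checked against marker genes, and the transcripts are described by level, length, position and size of difference.

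A level is given as RPKM, the reads of a transcript divided by its length in kilobases and by the depth of the library in units of 1000000 reads. Transcripts entered the comparison with at least 1 RPKM in fed or in fasting liver, and a transcript that a table does not list was taken as 0. The rule kept 10200 of the 19671 transcripts listed in at least 1 of both libraries (51.9%). Of these, 7953 had at least 1 RPKM in both livers, 1439 in fed liver alone and 808 in fasting liver alone. At the edge of the rule, the lowest of the higher values was 1.00019 RPKM inside it and the highest outside was 0.99989 RPKM. A band of 366 transcripts had their higher value between 1 and 1.1 RPKM, and 387 lay between 0.9 and 1 RPKM, outside the comparison. With 1 library per side there was no replicate check and no test, so the differences below are between these libraries, and intervals in brackets are exact 95% binomial (Clopper-Pearson) intervals that cover counting error only.

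The whole reads behind the RPKM could be recovered from the values, with lengths, up to a factor common to reads and length. This was possible because every RPKM is a whole number of reads divided by 1 depth and 1 length. The depth was 11475229 reads in fed and 10807868 reads in fasting liver. The recovered reads of the listed transcripts sum to 97.6% and 97.7% of these depths. Both are lower limits, since the reads of a transcript can be too low by that factor. A transcript of 1000 nt with 1 read has 0.0871 RPKM in fed and 0.0925 RPKM in fasting liver, and 3 reads, the limit that a count of 0 allows, correspond to 0.261 and 0.278 RPKM. The recovered lengths had a median of 2607 nt over all 20100 liver transcripts.

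Most transcripts differed by less than 2-fold between fed and fasting liver, and with the deposited scaling more of those beyond 2-fold were lower than higher in fasting. On the scale of log2((fasting RPKM + 1)/(fed RPKM + 1)), 445 transcripts (4.36%) were at least 2-fold higher in fasting and 1070 (10.5%) at least 2-fold lower, while 8685 were nearer. The median log2 ratio was -0.28, and 6820 of the 10200 transcripts (66.9%) had the lower value in fasting liver. Its middle part ran from -0.65 at the 25th percentile to 0.17 at the 75th, and from -1.26 at the 5th to 0.94 at the 95th. Relative to the median, the 95th percentile was 1.21 above and the 5th percentile 0.99 below, so the upper side of the distribution was the wider. Because the pseudocount of 1 RPKM pulls ratios of low transcripts towards 0, these values understate the difference of transcripts near 1 RPKM. Some of the 8685 thus differed by more than 2-fold in RPKM itself. The counting interval of the RPKM ratio lay wholly past 2-fold for 428 higher and 981 lower transcripts. Of these, 359 and 840 were among the 445 and 1070.

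The direction of the majority depended on how the libraries were scaled. When the log2 ratios were centred on their median, a shift of 0.28, 831 transcripts were at least 2-fold higher and 494 at least 2-fold lower, so that 62.7% of the transcripts beyond 2-fold were higher, against 29.4% with the deposited scaling. When both libraries were instead rescaled to the sum of RPKM outside the 100 most abundant transcripts of either, the counts were 617 higher and 715 lower, a share of 46.3%. Both settings move the ratios upward together, so the 445 higher transcripts had to stay higher, while 494 and 715 of the 1070 lower ones were still at least 2-fold lower. A larger total of mRNA in one liver and a different sharing of reads among transcripts cannot be told apart here, since the tables hold shares of a library.

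**Figure D1:**
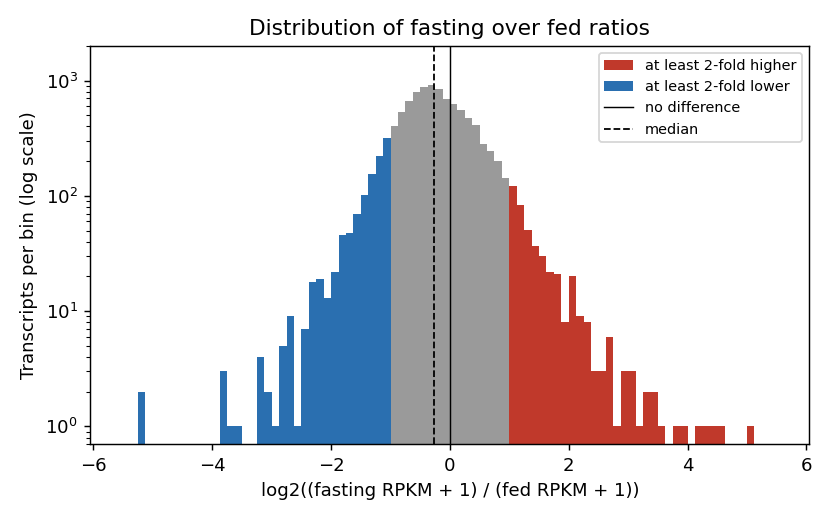
Histogram of log2((fasting RPKM + 1)/(fed RPKM + 1)) for 10200 transcripts (horizontal axis) against the number of transcripts per bin on a log scale (vertical axis), with transcripts at least 2-fold higher in red and at least 2-fold lower in blue. The dashed median at -0.28 lies left of the solid line at 0.

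Among larger differences the balance depended on the scaling at 4-fold, while at 8-fold more transcripts were higher with either scaling. With the deposited scaling, at least 4-fold higher in fasting were 69 transcripts and at least 4-fold lower 86. At 8-fold the counts were 16 higher and 13 lower, and at 16-fold 5 higher and 2 lower. After centring, 98 were at least 4-fold higher and 54 lower, and 21 and 7 at 8-fold. Most of the excess of lower transcripts with the deposited scaling lay between 2-fold and 4-fold, with 376 higher and 984 lower. Near the edge of the 2-fold rule, 98 transcripts had a log2 ratio from 1 to 1.1 and 107 from 0.9 to 1, against 268 between -1.1 and -1 and 315 between -1 and -0.9.

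The levels in both livers ran in parallel over more than 4 orders of magnitude. Over the 10200 transcripts, log2(RPKM + 1) in fed and fasting liver had a Pearson correlation of 0.915, and the levels a Spearman correlation of 0.826, both descriptions across transcripts, which are not independent replicates and share a library on each side. The transcripts that stood apart were spread over nearly the whole range of levels, as the plot of fed against fasting levels shows.

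**Figure D2:**
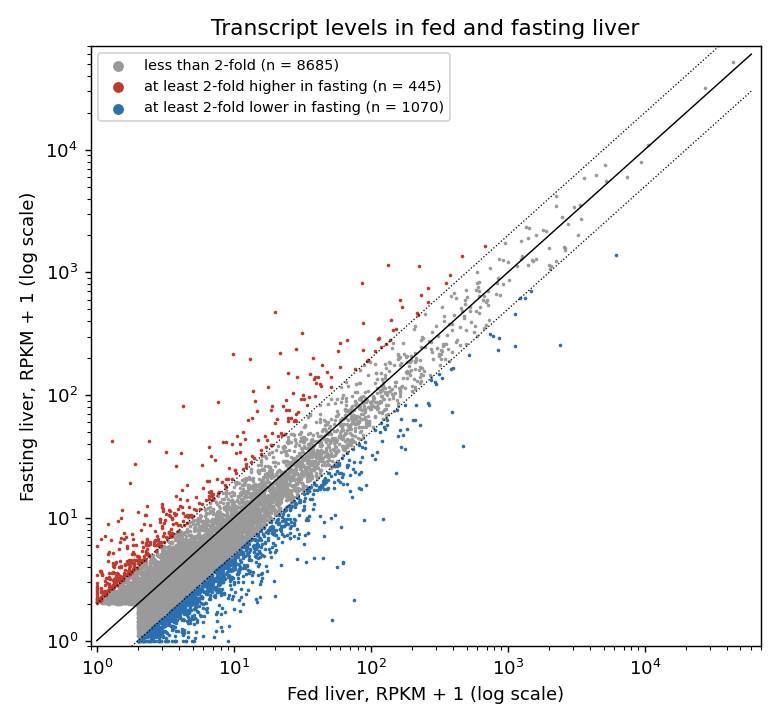
RPKM + 1 of each of 10200 transcripts in fed liver (horizontal axis) and fasting liver (vertical axis), both on log scales, with 445 transcripts at least 2-fold higher in red and 1070 at least 2-fold lower in blue. The solid line marks equal values and the dotted lines 2-fold differences of RPKM + 1; red and blue points occur from about 1 to over 1000 RPKM.

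The transcript with the highest ratio was ENSMUST00000020308, of 1755 nt. It had 0.298 RPKM in fed liver, from 6 reads, 41.4 RPKM in fasting liver, from 786 reads, and 9.31 RPKM in fasting liver with the trans-RNA, from 209 reads. It was thus close to the limit of detection in fed liver, at rank 10066 of the 10200, and at rank 650 in fasting liver. Its log2 ratio was 5.03, and the RPKM ratio of fasting over fed was 139 (63.6 to 380), wide because of the few reads in fed liver.

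The next highest ratio was that of ENSMUST00000034585, of 1815 nt. It had 19.1 RPKM in fed liver from 397 reads, 477 RPKM in fasting liver from 9361 reads, and 113 RPKM in fasting liver with the trans-RNA from 2621 reads. This transcript was already well detected in fed liver and entered the 100 most abundant in fasting liver, moving from rank 1366 to rank 94. Its log2 ratio was 4.58 and its RPKM ratio 25.04 (22.6 to 27.8), which fixes its size far more closely than that of the first transcript.

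The lowest ratio belonged to ENSMUST00000029046, of 987 nt. It had 51.2 RPKM in fed liver from 580 reads, 0.469 RPKM in fasting liver from 5 reads, and 25.5 RPKM in fasting liver with the trans-RNA from 322 reads. Its log2 ratio was -5.15, and its RPKM was 109-fold (46.5 to 338) higher in fed than in fasting liver. Next came ENSMUST00000044094, of 1549 nt, with 74.4 RPKM in fed liver from 1323 reads, 1.13 RPKM in fasting liver from 19 reads and 44.2 RPKM with the trans-RNA from 875 reads. Its log2 ratio was -5.14, and it was 65.6-fold (41.8 to 109) higher in fed liver. These transcripts stood at ranks 616 and 452 in fed liver and at ranks 9724 and 8286 in fasting liver. In the fasting library with the trans-RNA each of these 4 transcripts had a value between those of fed and fasting liver, and they were chosen as the extremes of the fed and fasting values.

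Abundant transcripts lay beyond 2-fold in both directions. Many passed a minimum only through the liver where they were high, so the counts are a description. Of 393 transcripts with at least 100 RPKM in either liver, 56 (14.2%) were at least 2-fold higher in fasting and 49 (12.5%) at least 2-fold lower, or 74 and 29 after centring. Of the 56, 22 reached 100 RPKM in fed liver too, and of the 49, 19 reached it in fasting liver too. Of 2439 with at least 10 RPKM in either, 174 (7.13%) were higher and 372 (15.3%) lower, which centring turned to 258 and 220. Of 57 with at least 1000 RPKM in either, 4 were higher and 7 lower, turned to 8 and 4. The highest ratio among these 57 was 3.11, for a transcript with 133 RPKM in fed and 1156 RPKM in fasting liver, from 3609 and 29539 reads, and 865 RPKM with the trans-RNA. The lowest was -3.24, for a transcript with 2400.01 RPKM in fed and 253 RPKM in fasting liver, from 15230 and 1513 reads, and 1758 RPKM with the trans-RNA.

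Grouped by their mean RPKM over fed and fasting liver, the share of transcripts at least 2-fold lower was 8.78% of 3440 under 2 RPKM, 10.1% of 3150 from 2 to 5, 12.3% of 2385 from 5 to 20, 13.5% of 894 from 20 to 100, 11.6% of 284 from 100 to 1000 and 3 of 47 at 1000 or more. The share at least 2-fold higher was 3.87%, 3.46% and 3.86% in the first 3 classes, 7.94% from 20 to 100 RPKM, 13.7% from 100 to 1000 and 1 of 47 at 1000 or more. With the pseudocount of 1 RPKM, low transcripts need a larger RPKM ratio to pass the 2-fold rule. The classes were also formed from the values compared. Shares of different classes are therefore not read as a trend with abundance. Lower transcripts outnumbered higher ones in every class but that from 100 to 1000 RPKM, with 39 higher and 33 lower. After centring, higher transcripts outnumbered lower ones in every class but that from 5 to 20 RPKM, where 155 were higher and 168 lower, and the class from 100 to 1000 RPKM had the largest share of higher ones, 18.0% against 7.39% lower. The class medians of the log2 ratio with the deposited scaling were -0.23, -0.27, -0.34, -0.28, -0.20 and 0.08 from the lowest to the highest class.

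**Figure D3:**
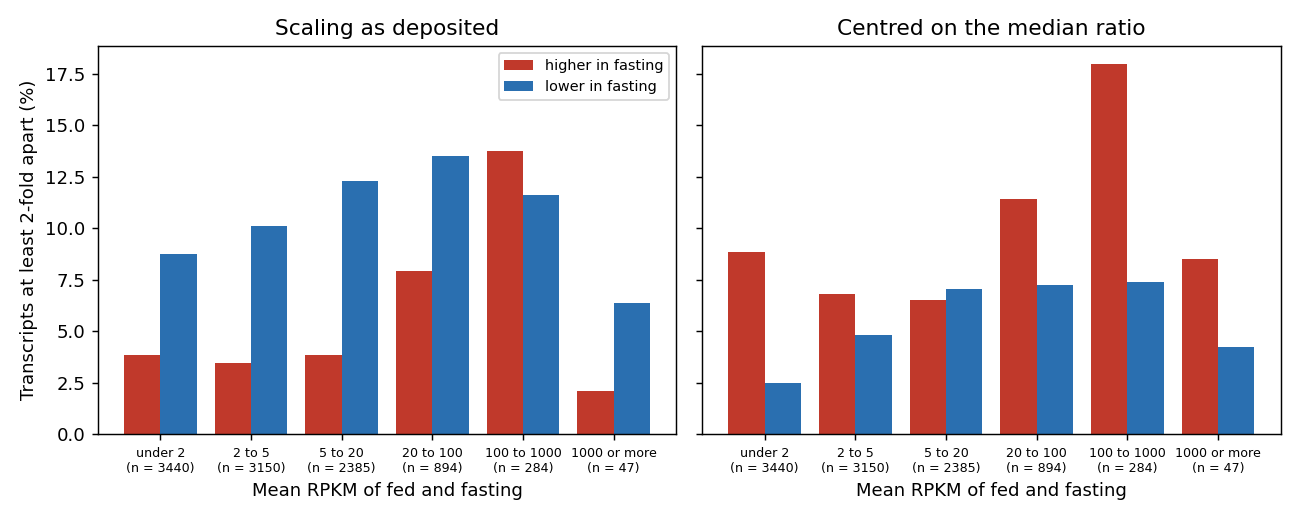
Share of transcripts at least 2-fold higher (red) and at least 2-fold lower (blue) in fasting liver (vertical axis, %) by mean RPKM class (horizontal axis, with the number of transcripts), with the deposited scaling on the left and ratios centred on their median on the right. The class from 100 to 1000 RPKM has the highest share of higher transcripts in both panels, 13.7% and 18.0%. With the pseudocount of 1 RPKM, low classes need a larger RPKM ratio to pass 2-fold.

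The reads behind a transcript set how closely its ratio is known. The median number of reads in fed liver was 44 in the class under 2 RPKM and 48637 in that of 1000 RPKM or more, and the median width of the 95% counting interval of the ratio was 1.46 on the log2 scale in the first class, 0.54 from 5 to 20 RPKM and 0.04 in the last. Of the 445 higher transcripts, 441 had an interval above a ratio of 1 and 359 an interval wholly above 2-fold. Of the 1070 lower transcripts, 1064 had an interval below 1 and 840 one wholly below a 2-fold decrease. Both sets were chosen by ratios of these same reads, which favours intervals away from 1, so these counts are a description. For 6329 of all transcripts (62.0%) the interval excluded the median RPKM ratio of 0.773. The share was 56.2% in the lowest class, 92.6% from 100 to 1000 RPKM and 97.9% at 1000 RPKM or more. The distance between the 25th and 75th percentiles of the log2 ratio was 0.87 in the class under 2 RPKM and 0.98 from 100 to 1000 RPKM. The median width of the counting interval was 1.46 and 0.12 in the same classes. These widths are unlike measures, since the interval covers 95% and is that of the RPKM ratio without a pseudocount. The part of counting error in the spread was not tested. The spread between livers of the same state was not measured.

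Few of the transcripts compared were listed in one liver alone, and the minimum of 1 RPKM leaves out those with low values. Without that minimum, 17922 of the 19671 transcripts listed in either liver were listed in both. Of the 10200, 43 were listed in fed and not in fasting liver, with 2 to 45 reads and a median of 18 in fed liver. The highest of them had 8.10 RPKM. A further 17 were listed in fasting and not in fed liver, with 3 to 41 reads and a median of 12, up to 4.86 RPKM. Set against 3 reads in the library without the transcript, the largest of these differences was at least 14.1-fold higher in fed liver for the first group and at least 14.5-fold higher in fasting liver for the second. No transcript above 8.10 RPKM was thus listed in one of these livers and not in the other.

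The levels of both sets mirror the way they were chosen, since a lower transcript had to be above the minimum in fed liver and a higher one in fasting liver. The 1070 lower transcripts had a median of 6.07 RPKM in fed liver (quartiles 2.98 and 15.0), 1.67 RPKM in fasting liver and 3.795 RPKM in fasting liver with the trans-RNA, and 386 of them were under 1 RPKM in fasting liver. The 445 higher transcripts had a median of 1.69 RPKM in fed liver (quartiles 0.477 and 8.70), 6.15 RPKM in fasting liver and 4.51 RPKM with the trans-RNA, and 177 of them were under 1 RPKM in fed liver. Both sets were chosen from the fed and fasting values, so the values with the trans-RNA, a library outside that choice, are a description.

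In reads, the lower set gave up slightly more than the higher set took. The 445 higher transcripts held 2.464% of the recovered reads in fed liver (2.455 to 2.473) and 7.579% in fasting liver (7.563 to 7.595), a gain of 5.11 percentage points. The 1070 lower transcripts held 9.509% in fed (9.492 to 9.526) and 3.228% in fasting liver (3.217 to 3.238), a change of -6.28 percentage points. The 8685 transcripts within 2-fold held 87.1% and 88.3%.

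Much of the gain in reads fell on a few very abundant transcripts that differed by less than 2-fold. Summed over all transcripts with a larger share in fasting, 16.6 percentage points of reads were gained. The most gaining transcript alone took 3.17 percentage points (19.1% of the gain) and the first 10 took 7.36 (44.3%), of which 3 were at least 2-fold higher. The losses were spread more widely. The first transcript accounted for 3.88% of them, the first 10 for 22.2% and the first 100 for 56.0%, against 80.8% for the first 100 of the gains.

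The same concentration appears in the reads of each library. The transcript with the most reads took 17.59% of the recovered reads in fed liver (17.57 to 17.61) and 20.77% in fasting liver (20.74 to 20.79). These intervals do not cover reads missed in the recovery, and shares of the full depth can lie outside them. The first 10 took 35.4% and 41.0%, and the first 100 took 65.0% and 68.9%. A total of 35 transcripts made up 50% of the reads in fed liver and 26 in fasting liver. In the fasting library with the trans-RNA the values lay between, with 18.7% for the first transcript, 38.2% for the first 10 and 31 transcripts for 50% of reads.

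**Figure D4:**
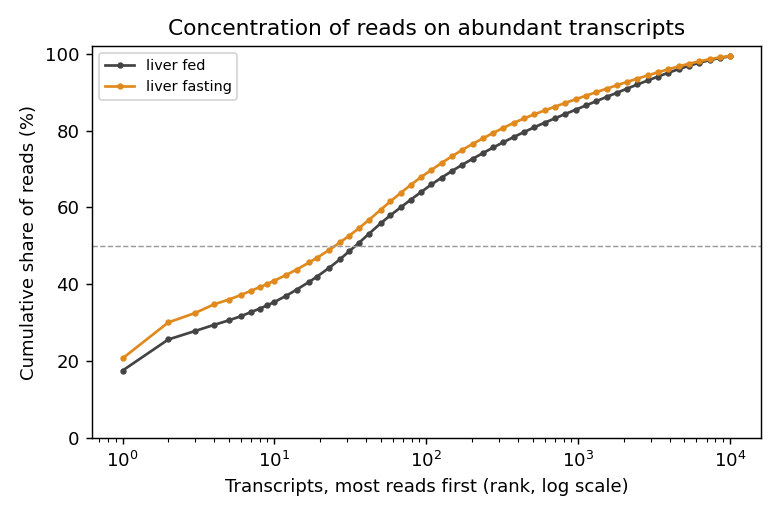
Cumulative share of recovered reads (vertical axis, %) against the rank of transcripts by reads on a log scale (horizontal axis), for fed liver (grey) and fasting liver (orange). The fasting curve lies above the fed curve and crosses 50% at 26 transcripts against 35.

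The most abundant transcripts of fed liver stayed abundant in fasting liver. Of the 10 with the highest RPKM in fed liver, 9 were among the 10 highest in fasting liver, and 81 of the highest 100 were among the highest 100. The first transcript, of 3894 nt, had 44109 RPKM in fed, 52102 RPKM in fasting and 46881 RPKM in fasting liver with the trans-RNA, a fasting over fed ratio of 1.18 (1.179 to 1.183). The transcript at rank 2, of 2862 nt, had 27586, 31904 and 29668 RPKM in the same order, a ratio of 1.16. That at rank 3 was nearly level, with 10573, 10861 and 10913 RPKM.

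The exception among the first 10 was the transcript at rank 6 in fed liver, of 803 nt. It had 6156 RPKM in fed liver from 56729 reads, 1395 RPKM in fasting liver from 12105 reads and 2574 RPKM with the trans-RNA. Its log2 ratio was -2.14, its RPKM ratio 0.227 (0.222 to 0.231), and it stood at rank 31 in fasting liver. This was the single transcript of these 10 past 2-fold. Of the other 9, 7 were higher in fasting with the deposited scaling and 8 after centring, the largest difference being 1.62-fold (1.60 to 1.63) for the transcript at rank 10, with 3607 RPKM in fed, 5830 RPKM in fasting and 4323 RPKM with the trans-RNA.

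Of the 100 highest in fed liver, 2 were at least 2-fold higher and 13 at least 2-fold lower, with a median log2 ratio of -0.14, and 6 and 9 after centring. Of the 100 highest in fasting liver, 15 were higher and 5 lower, with a median of 0.18, and 22 and 2 after centring. Each of these groups was chosen on one of the compared libraries, which tilts it towards that library, so the pair is given together.

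Transcripts of different recovered length had nearly the same median ratio, while those of short recovered length were spread more widely. A recovered length can be too low by a factor shared with the reads, so some longer transcripts can stand in a shorter class. The median log2 ratio was -0.33 for 913 transcripts under 1000 nt, -0.29 for 2445 from 1000 to 2000 nt, -0.28 for 2281 from 2000 to 3000 nt, -0.27 for 2797 from 3000 to 5000 nt and -0.23 for 1764 of 5000 nt or more. The distance between the 25th and 75th percentiles was 0.98 in the shortest and 0.62 in the longest class. The share at least 2-fold lower was 17.9% in the shortest class and 5.56% in the longest, and the share at least 2-fold higher 6.90% and 2.95%. After centring, the shares lower were 10.6% and 2.27%, and the shares higher 10.8% and 5.67%. Shorter transcripts have fewer reads at the same RPKM, with a median in fed liver of 47 reads in the shortest class and 234 in the longest, and the part of read number in the wider spread was not tested.

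Within levels the pattern by length was not uniform. Under 2 mean RPKM, 22.7% of 256 transcripts shorter than 1000 nt were at least 2-fold lower against 2.32% of 646 of 5000 nt or more. From 20 to 100 mean RPKM the order was turned, with 7.41% of 162 in the shortest class and 15.2% of 79 in the longest. The 445 higher transcripts had a median recovered length of 2213 nt and the 1070 lower ones 2124.5 nt, against 2855 nt for those within 2-fold.

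**Figure D5:**
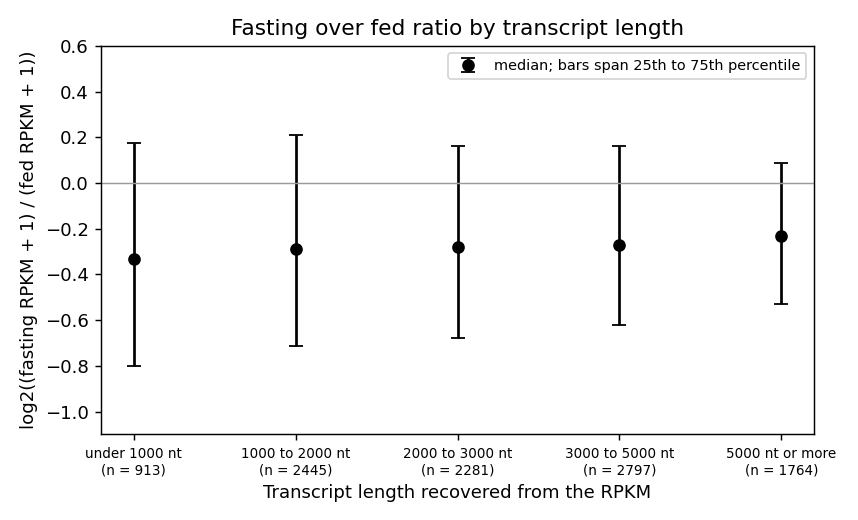
Median log2((fasting RPKM + 1)/(fed RPKM + 1)) of transcripts (points, vertical axis) by class of recovered length (horizontal axis, with the number of transcripts), with bars from the 25th to the 75th percentile. Recovered lengths can be too low by a factor shared with the reads. Medians lie from -0.33 in the shortest to -0.23 in the longest class, and the bars are longest for short transcripts.

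The frame lists deposited with the HEK293 ribosome profiling libraries carry mouse transcript IDs and positions, although HEK293 is a human line, and how these IDs arose was not settled here. By ID, 2801 of the 10200 transcripts were found in them. Of these, 57 (2.03%) were at least 2-fold higher in fasting and 237 (8.46%) lower. Of the 7399 transcripts not in the lists, 388 (5.24%) were higher and 833 (11.3%) lower. After centring the shares were 4.57% higher and 3.89% lower in the lists, and 9.50% and 5.20% outside them. The medians of the log2 ratio were -0.29 and -0.26, and the median levels in fed liver 4.75 and 3.03 RPKM. The difference between these groups was not tested, and presence in the lists is not read as translation in liver or in HEK293.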

How the data were processed

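Polyadenylated RNA of fed and fasting liver was compared, with 1 library each. Per the submitters' processing notes, bcl2fastq 2.20.0.422, cutadapt 2.8, Bowtie 1.2.3, STAR 2.7.10a and the build GRCm39 were used, with no role given. Annotation, strand and read filters are not given in the sources used here. The authors deposited RPKM and TPM per transcript, and the deposited TPM is the RPKM times 1 factor per library (2.78 fed, 2.83 fasting). The authors' frame lists of HEK293, which hold other values beside positions, served only for transcript IDs and chromosomes.

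The depth was computed as the common divisor of reads per RPKM, and reads as fractions with a length up to 200000 nt. Every RPKM was matched, with a relative error of at most 2.42e-14. Reads and length can both be too low by a common factor, which leaves ratios as they are and widens their intervals. Such a factor also lowers sums of reads and can alter shares of reads. It can place a transcript in too short a length class. The recovery was tested on simulated data. Differences are log2((fasting RPKM + 1)/(fed RPKM + 1)), with 2-fold as a rule of size. No test was run, because each side has 1 library. Python 3.11.15, numpy 2.4.6, pandas 2.3.3, scipy 1.17.1 and matplotlib 3.10.9 were used.

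The rule for names took the 2 highest and 2 lowest transcript IDs, because no symbols were paired with mouse IDs. Pathway and marker lists were set aside for that reason. The members and rules were chosen with earlier results of these data known. Alternatives changed the pseudocount, the filter, the threshold and the scaling.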

Additional observations from a re-analysis of the deposited data

How the results depend on the processing

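The counts of 445 higher and 1070 lower transcripts depend on pseudocount, filter, threshold and scaling, and none of these settings measures the spread between livers. They were 877 and 2088 with a pseudocount of 0.1, where low transcripts pass more easily, and 143 and 253 with a pseudocount of 5. A minimum of 5 RPKM gave 259 and 604 among 4245 transcripts, a 1.5-fold threshold 1106 and 2936, and a 3-fold threshold 125 and 228. With TPM in place of RPKM, whose values are larger so that the pseudocount and the minimum of 1 weigh less, the counts were 1092 and 1971. Centring on the median gave 831 and 494, the one setting here that put higher above lower over the whole set. Rescaling outside the 100 most abundant transcripts gave 617 and 715. Added after seeing the data, rescaling without the most abundant transcript gave 494 and 934, at least 50 reads over both libraries 365 and 895, and counting intervals past 2-fold 428 and 981. Among transcripts with at least 100 RPKM in either library, the 56 higher became 29 and the 49 lower 22 at 3-fold, and the 49 lower became 113 at 1.5-fold, with 82 higher, and 29 after centring, with 74 higher. The log2 ratios of the 4 named transcripts, chosen as extremes, were taken under 10 settings, the main one included. They ran from 3.13 to 6.71 for ENSMUST00000020308, 4.32 to 4.85 for ENSMUST00000034585, -6.50 to -3.36 for ENSMUST00000029046 and -5.92 to -3.69 for ENSMUST00000044094. A pseudocount or filter cannot turn a ratio, and the scalings shifted ratios by far less than these sizes. Their direction was thus fixed in advance and is no check. List medians and 1 transcript per gene were not run, since the IDs were not paired with genes. No paired analysis was possible because each group has 1 library. Depth limits transcripts near 1 RPKM, with a median of 44 reads in fed liver under a mean of 2 RPKM.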

Other observations

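For the 2801 transcripts found in the frame lists, the chromosome is known as well. Over the 19 autosomes, with 78 to 285 transcripts each, the median log2 ratio of fasting over fed ran from -0.40 to -0.16, so that every autosome was below 0 with the deposited scaling. The 112 transcripts of the X chromosome had a median of -0.26, with 2 at least 2-fold higher (1.79%) and 9 lower (8.04%), near the 2.05% and 8.49% of the 2687 autosomal transcripts in the same lists.

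The lists hold 2 transcripts of the Y chromosome that the liver tables list too. They had 5.42 and 4.60 RPKM in fed liver, from 286 and 97 reads, and 5.39 and 4.94 RPKM in fasting liver, from 268 and 98 reads. In fasting liver with the trans-RNA they had 4.74 and 4.60 RPKM. Whether reads of near-identical copies elsewhere are among them was not tested.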
